A study of Homo sapiens with 4 samples.

Results

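The oncofetal genes of liver cancer are genes that are active in the fetal liver or the early embryo, largely silent in the adult liver and active again in part of hepatocellular carcinomas (HCC). The set held 10 genes chosen by name, AFP, GPC3, LIN28B, HMGA2, IGF2BP1, IGF2BP2, IGF2BP3, DLK1, SALL4 and PEG10, and all 10 were found among the 58735 genes of the deposited tables. They were read in MHCC-97H, a highly metastatic human HCC cell line. The recipient cells were wild type in every group and were kept for 24 h with PBS as the control or with 2 µg of migrasomes (Migs), the large vesicles that migrating cells leave behind on their retraction fibres. Normo-Migs came from MHCC-97H cells under normoxia, hypo-Migs from the same line under hypoxia, and CD147KO-Migs from hypoxic cells that lacked CD147, the cell surface glycoprotein encoded by BSG. There was 1 library per condition and all 4 carried the same batch number, so no difference below has a replicate check, and every interval is an exact 95% interval that covers counting error only.

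The members belong to a few connected systems. LIN28B is an RNA-binding protein that blocks the maturation of let-7, a microRNA family that silences growth genes by pairing its seed with their 3′ untranslated regions, and HMGA2 and the IGF2BP genes are classic let-7 targets. SALL4 is a zinc finger factor of embryonic stem cells and fetal liver progenitors. PEG10 and DLK1 are imprinted genes expressed from the paternal copy, while AFP (α-fetoprotein) and GPC3 (glypican-3) are secreted or surface products used as HCC markers.

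The 4 libraries held between 33882496 and 40285223 reads on genes, and the PBS library stood apart from the others. In it 251 genes had at most 3 reads although each Mig library had at least 100, and no Mig library showed a single such gene against the other 3. Every comparison with PBS therefore rests on that 1 library, and the differences between kinds of Mig, which do not use it, are given beside it. Against PBS 6003, 6067 and 6033 of 19895 genes tested were past 2-fold in normo-Migs, hypo-Migs and CD147KO-Migs. With 1 library per condition, an effect of Migs cannot be told apart from any other difference of the PBS culture or library. The wording after Migs below names the libraries and not a cause. BSG had 48157 reads in PBS and 34051, 37109 and 34021 in normo-Migs, hypo-Migs and CD147KO-Migs, which does not check the knockout, since only the donor cells lacked the gene. Of 25 hepatocyte markers 11 stayed under 10 reads in all 4 libraries, and the defining genes ALB, APOB, APOC3 and TTR had no read in any. CPS1, the first enzyme of the urea cycle, had the most reads of the list, 59306 to 76879.

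The seed of let-7 is shown because 6 of the 10 members carry its complement. RefSeq (GRCh38.p14) lists 9 mature microRNAs of the family, miR-98 included, and all share the same seed, bases 2 to 8, set in capitals in these 3 examples.
hsa-let-7a-5p: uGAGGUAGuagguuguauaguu
hsa-let-7b-5p: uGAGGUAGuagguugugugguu
hsa-miR-98-5p: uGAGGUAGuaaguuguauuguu

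The complement of that seed, CTACCTC, was searched on the transcript strand in the 3′ untranslated region of the principal transcript of each gene (GENCODE 29, hg38). LIN28B held 4 matches, HMGA2 4, IGF2BP1 4, and IGF2BP2, IGF2BP3 and SALL4 1 each, while AFP, GPC3, DLK1 and PEG10 held none. Among 18944 protein-coding 3′ untranslated regions 8.59% held at least 1 match, a share that was 20.3% for regions of at least 2000 bases and 31.0% for those of at least 4000, and 12 genes in all had 4 or more. The regions of LIN28B (4549 bases), HMGA2 (3003) and IGF2BP1 (6206) are long, but so are those of PEG10 (5161) and DLK1 (3328), which had no match. A match is a description of the letters and not a measured binding site. For each of the 6 genes the match nearest the stop codon is shown with the bases before it and 1 base after it, the match in capitals.
LIN28B: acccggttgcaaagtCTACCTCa
HMGA2: gccaacgttcgatttCTACCTCa
IGF2BP1: tgtgtgcgaagtaaaCTACCTCa
IGF2BP2: aacacacagaagaagCTACCTCa
IGF2BP3: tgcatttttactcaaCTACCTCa
SALL4: aaagctttaatttatCTACCTCa

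These stretches lie at chr6:105078812-105078834 on the plus strand for LIN28B, chr12:65963298-65963320 (plus) for HMGA2, chr17:49051061-49051083 (plus) for IGF2BP1, chr3:185644220-185644242 (minus) for IGF2BP2, chr7:23311795-23311817 (minus) for IGF2BP3 and chr20:51782923-51782945 (minus) for SALL4. In all 6 of these stretches the base after the match is an adenine. Some of the further matches in LIN28B, HMGA2 and IGF2BP1, not shown, are followed by thymine or cytosine. The matches begin at base 44 of the region in LIN28B and base 21 in HMGA2, close to the stop codon, and at base 560 in IGF2BP3, 1304 in IGF2BP2, 1335 in SALL4 and 1632 in IGF2BP1. The microRNAs themselves were not measured in these libraries.

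In these cells 3 members were more than 2-fold higher than the single PBS library after every kind of Mig, as were 14.2% of all genes tested, and 1 was more than 2-fold lower, as were 7.10%. None of the 7 tested members differed by 2-fold between the kinds of Mig. SALL4 went from 2 reads to between 992 and 1206, HMGA2 was 8.74 to 10.1 times higher, PEG10 5.69 to 6.29 times higher, and IGF2BP3 was at 0.464 to 0.491 times its PBS level. LIN28B had at most 10 reads in any library, and whether it passed the 2-fold limit depended on how such low counts are treated. AFP and GPC3 had no read in any library, and DLK1 had 1 read in all.

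**Figure D1:**
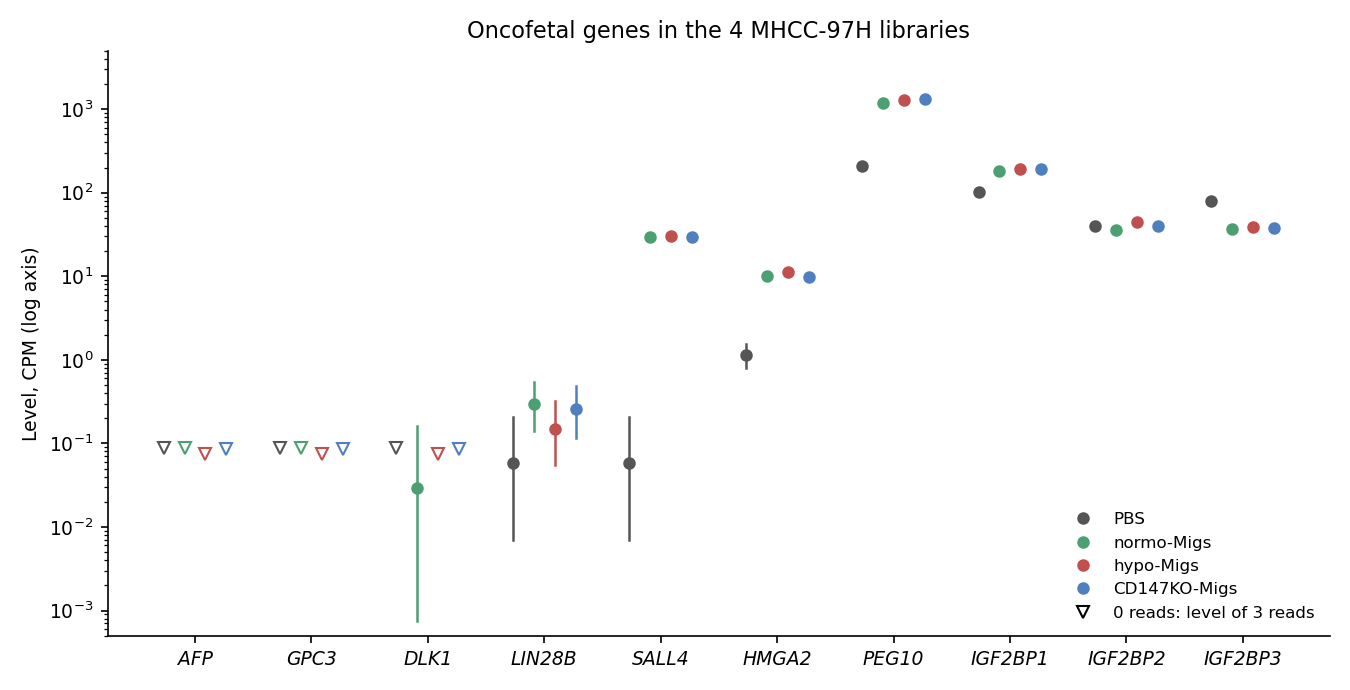
Level of each oncofetal gene in reads per 1000000 scaled reads (CPM, log axis) in the 4 libraries, with exact 95% counting intervals as bars; open triangles mark 0 reads and are placed at the level of 3 reads. SALL4 lies at 0.0579 CPM in PBS and between 29.1 and 30.0 in the Mig libraries, and AFP and GPC3 have triangles only.

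LIN28B (hg38 chr6:104936616-105083332, plus strand) was near the limit of detection. It had 2 reads in PBS, 10 after normo-Migs, 6 after hypo-Migs and 9 after CD147KO-Migs, or 0.0579, 0.293, 0.149 and 0.257 CPM. The Mig libraries were nominally higher, with intervals that overlap that of PBS (0.00702 to 0.209 CPM) in every case. The ratio to PBS was 5.06 after normo-Migs (1.08 to 47.5), 2.58 after hypo-Migs (0.461 to 26.1) and 4.43 after CD147KO-Migs (0.918 to 42.2), and only the first interval leaves out 1. The paralog LIN28A had no read in any library. LIN28B passed the filter of at least 10 reads in 1 library only through normo-Migs.

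Transcripts of most proteins that act with LIN28B on let-7 were detected, and those with enough reads were within 2-fold of PBS. Of 12 listed proteins of let-7 processing 10 had enough reads, and none was past 2-fold in any of the 5 comparisons. Against PBS 18.1% to 18.9% of all tested genes were higher and 11.6% to 12.0% lower. Between Migs 4.78% to 5.19% were higher and 4.15% to 4.34% lower. The list's median log2 difference from PBS was 0.05 after normo-Migs, 0.07 after hypo-Migs and 0.08 after CD147KO-Migs. Over all 19895 genes tested the medians were 0.03, 0.04 and 0.03. TUT4, the uridylyltransferase that LIN28 proteins recruit to let-7 precursors, had 2203 reads in PBS and 3312, 4115 and 3390 after normo-Migs, hypo-Migs and CD147KO-Migs. Its ratio to PBS was 1.52 (1.44 to 1.61), 1.61 (1.52 to 1.69) and 1.52 (1.44 to 1.60), outside counting error. Among the 4 host transcripts of let-7 genes that could be matched, MIR100HG had 143 reads in PBS and 356, 560 and 477 after the 3 Migs, and was the only one past 2-fold (log2 difference 1.32, 1.74 and 1.70).

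HMGA2 (chr12:65824131-65966295, plus strand), an architectural chromatin protein of embryonic tissue, was low in PBS and higher in each Mig library. It had 39 reads in PBS, 343 after normo-Migs, 457 after hypo-Migs and 346 after CD147KO-Migs, or 1.13, 10.1, 11.4 and 9.88 CPM. No interval of a Mig library reached the interval of PBS, 0.804 to 1.54 CPM. The log2 difference from PBS was 3.09 (2.67 to 3.67) after normo-Migs, 3.27 (2.86 to 3.84) after hypo-Migs and 3.07 (2.65 to 3.64) after CD147KO-Migs. Per length it remained a minor transcript, at 0.0732 FPKM (fragments per kilobase of transcript per 1000000 fragments) in PBS and 0.648, 0.733 and 0.635 FPKM after the 3 Migs.

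Of 14 partners and targets listed for HMGA2, 13 had enough reads, and 3 were higher and 1 lower against PBS in each Mig library, beside 18.1% to 18.9% and 11.6% to 12.0% of all tested genes. The 3 higher genes were TWIST1 and SNAI1, transcription factors of the epithelial-mesenchymal transition, and E2F1, a factor of S phase entry. TWIST1 had 61 reads in PBS and 463, 510 and 608 after normo-Migs, hypo-Migs and CD147KO-Migs, and SNAI1 had 81 and 382, 513 and 547. E2F1 had 1169 reads in PBS and 3465 to 3794 after Migs. The lower gene was PLAG1, a zinc finger factor that drives IGF2 in fetal tissue, with 394 reads in PBS and 21, 47 and 31 after Migs. The list's median log2 difference was −0.06, −0.06 and −0.20. HMGA1, the paralog of HMGA2, was at 29184 reads in PBS and 18799 to 22520 after Migs (log2 difference −0.44 to −0.66), opposite in sign to HMGA2 and not past 2-fold.

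The IGF2BP genes encode 3 paralogous RNA-binding proteins that stabilise target mRNAs such as MYC and IGF2, and they moved in different directions. IGF2BP1 (chr17:48997412-49055650, plus strand) had 3535 reads in PBS, 6256 after normo-Migs, 7614 after hypo-Migs and 6645 after CD147KO-Migs, or 102, 184, 190 and 190 CPM. Its Mig libraries all lay above PBS, by 1.79 times (1.72 to 1.87), 1.85 (1.78 to 1.93) and 1.85 (1.78 to 1.93), outside counting error and short of 2-fold. IGF2BP3 (chr7:23310209-23470467, minus strand) went the other way, with 2723 reads in PBS and 1247, 1556 and 1322 after normo-Migs, hypo-Migs and CD147KO-Migs, or 78.9, 36.6, 38.8 and 37.7 CPM. Its log2 difference from PBS was −1.11 (−1.21 to −1.01), −1.02 (−1.12 to −0.93) and −1.06 (−1.16 to −0.97), which is at the 2-fold limit itself. MALSU1, which overlaps IGF2BP3 on the other strand, had 1568 reads in PBS and 1382 to 1545 after Migs, and the strand setting of the counting is not given in the sources used here, so reads from such pairs cannot be told apart.

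IGF2BP2 (chr3:185643739-185825056, minus strand), the paralog that persists in adult tissue, showed the smallest differences from PBS among the tested members. It had 1365 reads in PBS and 1228, 1779 and 1409 after normo-Migs, hypo-Migs and CD147KO-Migs, or 39.5, 36.0, 44.3 and 40.2 CPM. PBS lay inside the range of the Mig libraries. The log2 differences were −0.13 (−0.25 to −0.02), 0.16 (0.06 to 0.27) and 0.02 (−0.08 to 0.13).

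Per length, the make-up of the IGF2BP family differed between PBS and the Mig libraries. The summed level was 28.8 FPKM in PBS and 31.8, 34.4 and 33.4 FPKM after normo-Migs, hypo-Migs and CD147KO-Migs. IGF2BP1 made up 39.0% of it in PBS and 62.9%, 59.9% and 61.7% after Migs, while IGF2BP3 made up 32.1% in PBS and 13.4%, 13.1% and 13.1% after Migs. IGF2BP2 held 28.9% in PBS and 23.7% to 26.9% after Migs. In PBS the order was IGF2BP1, IGF2BP3, IGF2BP2, with the latter pair at 9.25 and 8.34 FPKM, and after every Mig it was IGF2BP1, IGF2BP2, IGF2BP3.

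**Figure D2:**
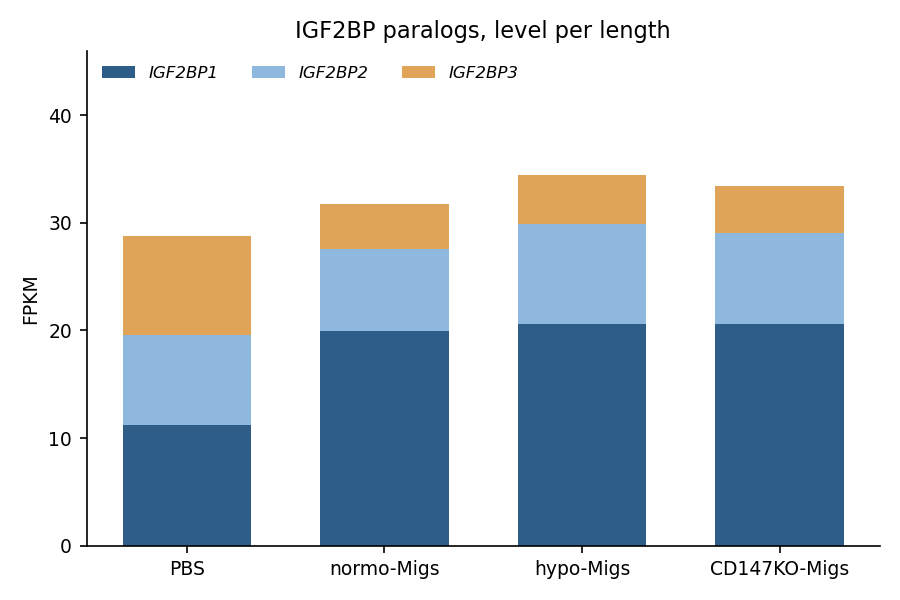
FPKM of IGF2BP1, IGF2BP2 and IGF2BP3 stacked for each library. The total differs little (28.8 to 34.4 FPKM), while IGF2BP1 goes from 11.2 FPKM in PBS to 20.0 to 20.6 after Migs and IGF2BP3 from 9.25 to between 4.26 and 4.52.

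Genes that act with the IGF2BP proteins differed from PBS by less than 2-fold, as IGF2BP1 did. Of 20 listed writers, erasers and readers of N6-methyladenosine (m6A) and IGF2BP partners, all 20 had enough reads. None was past 2-fold in any of the 5 comparisons. Against PBS 18.1% to 18.9% of all tested genes were higher and 11.6% to 12.0% lower. Between Migs 4.78% to 5.19% were higher and 4.15% to 4.34% lower. The list's median log2 differences from PBS were 0.07, 0.05 and 0.05, beside 0.03, 0.04 and 0.03 over all tested genes. ALKBH5, an m6A eraser, had 6753 reads in PBS and 3801, 4411 and 3538 after Migs (log2 difference −0.81, −0.83 and −0.95). In the other direction MATR3 stood at 0.81, 0.94 and 0.83 and PABPC1 at 0.70, 0.72 and 0.67, near the 0.84 to 0.89 of IGF2BP1. MATR3 had far fewer reads than IGF2BP1, 107 in PBS and 186, 241 and 194 after Migs. MYC, the best known IGF2BP target, had 10383 reads in PBS and 11686 to 13619 after Migs (log2 difference 0.17 to 0.22).

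Among other let-7 targets all 22 listed genes had enough reads. After normo-Migs 5 were higher beside 18.1% of all tested genes, after hypo-Migs 6 beside 18.9% and after CD147KO-Migs 7 beside 18.3%, and 1 was lower each time beside 12.0%, 11.6% and 12.0%. The median log2 difference was 0.56, 0.49 and 0.50, and MYCN, IGDCC3 and CCND2 passed the filter only through Mig libraries, in which they were higher. IGF1R, the receptor of IGF1 and IGF2, named here after its values were seen, had 3486 reads in PBS and 13689, 16859 and 14120 after Migs (log2 difference 1.99, 2.06 and 2.00). MYCN, the neuronal MYC paralog, had 0 reads in PBS and 39, 63 and 63 after Migs, at least 13.2-fold higher against a floor of 3 reads in the PBS library. IGDCC3 had 0 reads in PBS and 26, 27 and 40 after Migs, and CCND2, a G1 cyclin, 0 and 18, 8 and 14. The lower gene was ARID3A, with 1112 reads in PBS and 474, 510 and 397 after Migs. The direction was not shared by all targets, as IGF2BP3 and ARID3A show.

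SALL4 (chr20:51782331-51802520, minus strand) had the largest difference of the set. It had 2 reads in PBS, 992 after normo-Migs, 1206 after hypo-Migs and 1037 after CD147KO-Migs, or 0.0579, 29.1, 30.0 and 29.6 CPM. The PBS interval ends at 0.209 CPM, far below every Mig library. The ratio to PBS was 502 (139 to 4155) after normo-Migs, 519 (143 to 4286) after hypo-Migs and 511 (141 to 4225) after CD147KO-Migs, wide because only 2 reads stand in the control. By log2 difference from PBS SALL4 ranked 65, 62 and 62 from the top of 19895 genes. It passed the filter only through the Mig libraries and is among the 251 genes that set the PBS library apart. Per length it stood at 5.00 to 5.16 FPKM after Migs, above HMGA2 and IGF2BP3 and below IGF2BP2, and at 0.0100 FPKM in PBS.

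Within the SALL family the pattern was shared by 1 paralog. SALL2 had 0 reads in PBS and 271, 232 and 232 after Migs, at least 91.5-fold, 66.5-fold and 76.2-fold higher, while SALL1 and SALL3 had no read in any library. Subunit genes of the nucleosome remodelling and deacetylase complex (NuRD), which SALL4 recruits, were within 2-fold of PBS. Of 16 genes in the combined list of SALL family and NuRD subunits 14 had enough reads. SALL2 alone, which passed the filter only through the Mig libraries, was past 2-fold. Of all tested genes 18.1% to 18.9% were higher and 11.6% to 12.0% lower. The list medians were 0.13, 0.11 and 0.18 against PBS on the log2 scale. HDAC1 had 5012 reads in PBS and 6492 to 7663 after Migs, and CHD4 933 and 775 to 939. Larger log2 differences were those of RBBP7 (0.62, 0.67 and 0.67) and, below PBS, CHD3 (−0.43, −0.44 and −0.38).

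Pluripotency genes were mostly undetected. Of 15 listed genes 5 had enough reads, of which 2, 3 and 2 were higher than PBS after normo-Migs, hypo-Migs and CD147KO-Migs and 1 was lower each time, beside 18.1% to 18.9% and 11.6% to 12.0% of all tested genes. NANOG, DPPA4, TDGF1 and PRDM14 had no read in any library. POU5F1 (OCT4), which SALL4 activates in stem cells, was lower, with 714 reads in PBS and 141, 144 and 123 after Migs (log2 difference −2.31, −2.51 and −2.54). Pseudogenes of POU5F1 may share its reads, so its count is uncertain. DNMT3B, the de novo DNA methyltransferase, was higher, with 198 reads in PBS and 1634, 1917 and 1633 after Migs (3.05, 3.05 and 3.01), and DPPA2 had 0 reads in PBS and 53, 73 and 51 after Migs. SOX2 had 12 reads after hypo-Migs and 0 in the other libraries, and is named after its values were seen. The list's median against PBS was 0.99, 2.67 and 0.80, and 1.78 for hypo-Migs with genes at 0 set to the floor of 3 reads. The 2.67 is the value of SOX2 itself. DPPA2 passed the filter only through the Mig libraries and SOX2 only through hypo-Migs, which can raise the medians and the counts of higher genes.

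PEG10 (chr7:94656325-94669695, plus strand), a retrotransposon-derived growth gene of placenta and HCC, was the member with the highest FPKM in every library. It had 7217 reads in PBS, 40553 after normo-Migs, 51998 after hypo-Migs and 46061 after CD147KO-Migs, or 209, 1190, 1295 and 1315 CPM. The Mig libraries stood together and far above PBS. The log2 difference was 2.51 (2.47 to 2.55), 2.63 (2.60 to 2.67) and 2.65 (2.62 to 2.69). Its level per length was 31.2 FPKM in PBS, rank 1506 among genes, and 176, 192 and 195 FPKM after Migs, ranks 157, 142 and 137.

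PEG10 sits head to head with SGCE, another paternally expressed gene that overlaps it on the opposite strand. SGCE had 691 reads in PBS and 1620, 2067 and 1711 after Migs, a log2 difference of 1.25 (1.12 to 1.38), 1.36 (1.24 to 1.49) and 1.28 (1.16 to 1.42). Both genes of the pair were thus higher, PEG10 by more. CASD1 and PPP1R9A, further genes of the region, went the other way without passing 2-fold. CASD1 had 987 reads in PBS and 603 to 805 after Migs, and PPP1R9A had 1131 and 789 to 966.

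Among the 9 imprinted partner genes with enough reads 1 was past 2-fold between the kinds of Mig, being higher after hypo-Migs. Of all tested genes 5.19% were higher and 4.15% lower after hypo-Migs than after normo-Migs. Against CD147KO-Migs the shares were 4.78% and 4.34%. H19, the maternally expressed fetal RNA beside IGF2, had 798 reads in PBS, 0 after normo-Migs, 27 after hypo-Migs and 2 after CD147KO-Migs. With its 0 reads set to a floor of 3, H19 was 263-fold lower than PBS after normo-Migs, and hypo-Migs stood at 0.0291 times PBS (0.0191 to 0.0427). Hypo-Migs were 7.64-fold above normo-Migs against that floor and 11.8 times CD147KO-Migs (2.96 to 102), all on few reads. IGF2, the mRNA that gives the IGF2BP genes their name, stayed at 0, 8, 8 and 5 reads. Across the 15 listed imprinted genes 9 had enough reads, 2 were higher (MEG3 and SGCE) and 2 lower (H19 and DIO3) in each comparison with PBS, beside 18.1% to 18.9% and 11.6% to 12.0% of all tested genes, and the medians were −0.50, −0.44 and −0.46. MEG3 passed the filter only through the Mig libraries, in which it was higher.

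DLK1 (chr14:100725705-100738224, plus strand), a Notch-like surface protein of hepatoblasts, was not detected beyond 1 read after normo-Migs. The 0 reads in PBS, hypo-Migs and CD147KO-Migs have exact upper limits of 0.107, 0.0919 and 0.105 CPM. Its imprinted neighbours on the same chromosome were low as well. MEG3, the maternally expressed RNA of that locus, had 0 reads in PBS and 53, 65 and 30 after Migs. Against a floor of 3 reads that is 17.9-fold, 18.6-fold and 9.85-fold higher. RTL1 had 1 read in all, and DIO3, the thyroid hormone deiodinase, had 31 in PBS and 2, 6 and 11 after Migs.

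AFP (chr4:73431138-73456174, plus strand), the fetal counterpart of albumin, had 0 reads in all 4 libraries, with exact upper limits of 0.0919 to 0.108 CPM. The genes of the same cluster, ALB, AFM and GC, also had no read. Of the 15 genes of the albumin cluster and its regulators reported here, 11 had enough reads, and 2 were higher than PBS after normo-Migs, 3 after hypo-Migs and 2 after CD147KO-Migs, beside 18.1%, 18.9% and 18.3% of all tested genes. FOXA2, a pioneer factor of liver genes, had 0 reads in PBS and 60, 43 and 41 after Migs, and passed the filter only through the Mig libraries. NR2F1 (COUP-TFI), a nuclear receptor, had 539 reads in PBS and 3638, 4433 and 3998 after Migs. NR5A2, a nuclear receptor of liver and early embryo, had 60 and 120, 155 and 114, and passed 2-fold after hypo-Migs. ZHX2, the postnatal AFP repressor, had 306 and 405 to 483.

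GPC3 (chrX:133535745-133985895, minus strand), a heparan sulphate proteoglycan of fetal liver, also had 0 reads in all 4 libraries, with the same upper limits. The other members of its family were detected to different degrees. GPC1 had 4799 reads in PBS and 8654, 8782 and 8839 after Migs, short of 2-fold. GPC6 had 12 and 82, 105 and 90, and GPC4 had 4 reads after normo-Migs and none elsewhere. Of 16 glypican and glypican-processing genes 15 had enough reads, and 6 were higher in each comparison with PBS, beside 18.1% to 18.9% of all tested genes, with medians of 0.87, 0.65 and 0.86. HS6ST2 passed the filter only through the Mig libraries.

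Enzymes that shape the heparan sulphate chains of glypicans held the largest differences of that list. HS6ST2, a 6-O-sulphotransferase, had 0 reads in PBS and 2470, 2850 and 2486 after Migs, at least 834-fold, 817-fold and 817-fold higher. SULF2, the sulphatase that removes such groups, had 11 reads in PBS and 1944, 2352 and 1841 after Migs (log2 difference 7.25, 7.29 and 7.14). Its paralog SULF1 stayed at 12, 14, 14 and 2 reads and, by these few reads, was the 1 gene of the list past 2-fold below PBS after CD147KO-Migs and past 2-fold between hypo-Migs and CD147KO-Migs. Of all tested genes 12.0% were past 2-fold below PBS after CD147KO-Migs, and 4.78% were higher by 2-fold after hypo-Migs than after CD147KO-Migs.

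Counted over the set, with the rule that a gene is called when its log2 difference is at least 1 in size, 4 of the 7 tested members were higher than PBS after normo-Migs (SALL4, HMGA2, PEG10 and LIN28B) where 18.1% of all tested genes were, and 1 was lower (IGF2BP3) where 12.0% were. After hypo-Migs 3 members were higher beside 18.9% of genes and 1 was lower beside 11.6%. LIN28B, at 2.58 times PBS in scaled reads, stood at 0.85 on the log2 scale because a prior count of 2 is added to each library, and at 1.27 with a prior count of 0.25, where it was called and made 4 members. After CD147KO-Migs 4 were higher beside 18.3% and 1 lower beside 12.0%. SALL4, HMGA2 and PEG10 were past 2-fold above PBS in all 3 Mig libraries, as were 14.2% of genes, and IGF2BP3 was past it below PBS in all 3, as were 7.10%. The remaining 3 of the 10 members had too few reads for a call, and LIN28B and SALL4 entered only through libraries in which they were high, so these counts describe the tested members and not the set as a whole. The 3 comparisons share the PBS library and are not independent of each other.

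**Figure D3:**
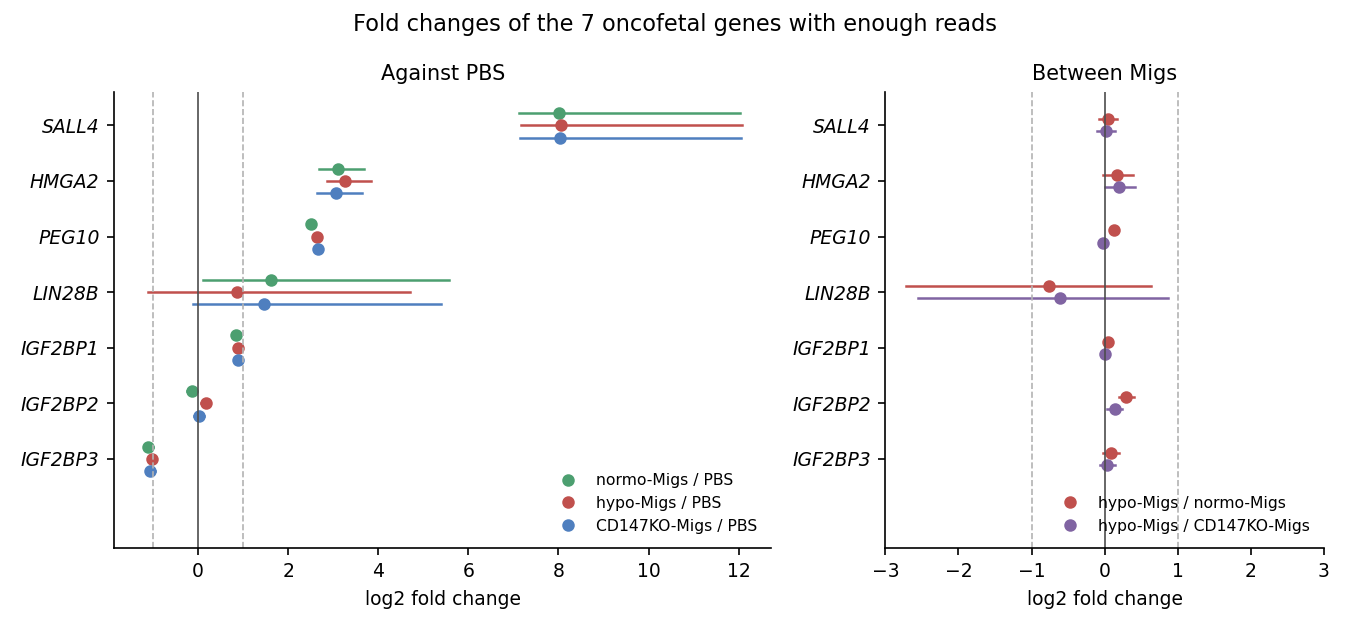
Log2 differences of the 7 members with at least 10 reads in 1 library, against PBS on the left and between Migs on the right, with exact 95% counting intervals; dashed lines mark 2-fold. SALL4, HMGA2 and PEG10 lie beyond the line on the left for all 3 Migs, and no point lies beyond it on the right.

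Between the Migs, 0 of 7 tested members were called in either direction. The background was 5.19% higher and 4.15% lower for hypo-Migs against normo-Migs, and 4.78% higher and 4.34% lower for hypo-Migs against CD147KO-Migs. The largest of these differences was that of LIN28B, −0.77 (−2.72 to 0.63) against normo-Migs and −0.61 (−2.55 to 0.87) against CD147KO-Migs, both inside counting error. IGF2BP2 was 0.30 higher on the log2 scale after hypo-Migs than after normo-Migs (0.19 to 0.40) and 0.14 higher than after CD147KO-Migs (0.04 to 0.24). HMGA2 was 0.18 above normo-Migs (−0.03 to 0.38) and 0.20 above CD147KO-Migs (0.00 to 0.41). SALL4 differed by 0.05 (−0.08 to 0.17) and 0.02 (−0.10 to 0.14), and IGF2BP3 by 0.08 (−0.03 to 0.19) and 0.04 (−0.07 to 0.15). PEG10 was 0.12 above normo-Migs (0.10 to 0.14) and 0.02 below CD147KO-Migs (−0.04 to −0.0037), differences that leave out 0 only because its counts are high, and no replicate shows how far such values scatter.

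The spread of the members over the 3 Mig libraries was narrow for most. The log2 range was 0.05 for SALL4 and IGF2BP1, 0.08 for IGF2BP3, 0.14 for PEG10, 0.20 for HMGA2, 0.30 for IGF2BP2 and 0.77 for LIN28B. The median range was 0.15 over the 12293 genes that averaged at least 100 reads.

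**Figure D4:**
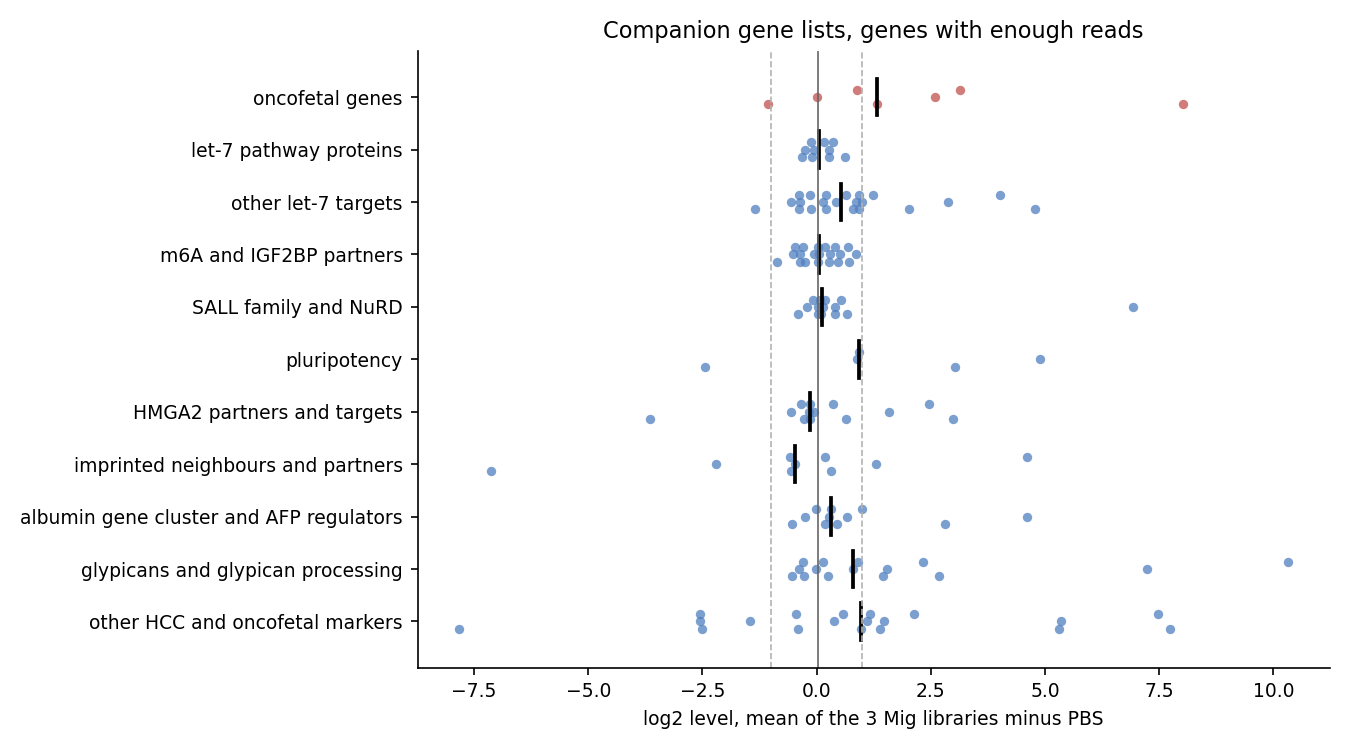
Mean log2 level of the 3 Mig libraries minus PBS for every gene with enough reads in the oncofetal set (red) and in 10 companion lists (blue), with black bars at each median and dashed lines at 2-fold. The processing and partner lists of LIN28B and the IGF2BP genes stay between the dashed lines, while single genes such as HS6ST2 and H19 lie far outside.

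Markers of other cell types also differed between PBS and the Mig libraries. Of 10 fibroblast markers 7 had enough reads and 5 were higher in each comparison with PBS, beside 18.1% to 18.9% of all tested genes, LUM having passed the filter only through the Mig libraries. Their summed level was 25.7 CPM in PBS and 211 to 223 CPM after Migs, the higher genes being COL1A1, DCN, LUM, PDGFRB and THY1, which had 11 reads in PBS and 1681 to 2082 after Migs, while COL1A2 had 2 reads in PBS and 0 after Migs, and PDGFRA had 1 read in all. The 7 cholangiocyte markers reported here all had enough reads. Against PBS 3 or 4 were higher and 2 lower, beside 18.1% to 18.9% and 11.6% to 12.0% of all tested genes. The sum of these markers was 1699 CPM in PBS and 545 to 594 CPM after Migs. Of these SPP1, SOX9, AQP1 and CFTR passed the filter only through Mig libraries. KRT19, a keratin of bile ducts, had 11287 reads in PBS and 75, 52 and 32 after Migs. Of 8 endothelial markers 5 had enough reads, with 28.6 CPM in sum in PBS and 47.2 to 53.3 after Migs, most of it ENG, which had 869 reads in PBS and 1445 to 1734 after Migs. PECAM1 had 16 reads in PBS and 118 to 146 after Migs, while CDH5 had 84 and 30, 72 and 59. In each comparison with PBS 2 endothelial markers, PECAM1 and ERG, were higher and 1 or 2 lower. The shares of all tested genes were 18.1% to 18.9% and 11.6% to 12.0%. ERG had 0 reads in PBS and 2, 10 and 12 after Migs, and passed the filter only through Mig libraries. Of 8 blood cell markers 2 had enough reads, with a sum of 0.695 and 2.85 to 4.45 CPM, HBB and CD3E being at 0. The hepatocyte list summed to 1775 CPM in PBS and 1801 to 2026 after Migs, most of it CPS1. Of its 14 genes with enough reads 8, 7 and 9 were higher after normo-Migs, hypo-Migs and CD147KO-Migs and 4, 4 and 3 lower, beside 18.1% to 18.9% and 11.6% to 12.0% of all tested genes. FGA, FGB, FGG, APOH, ASGR1, CYP2E1, AMBP and TF had under 10 reads in PBS and passed the filter only through Mig libraries. This can raise the counts of higher genes, and AMBP and TF had at most 10 reads in any library. FGB, a fibrinogen chain, had 0 reads in PBS and 561, 827 and 832 after Migs, FGA 0 and 395, 493 and 462, and FGG 6 and 205, 322 and 381. RBP4, the retinol carrier, had 33 and 630, 818 and 895, and VTN (vitronectin) was lower, with 561 and 188, 179 and 234. Every library was labelled as the single line MHCC-97H, not as a mixture of cell types. The part of these shifts in the members' differences was not tested. In bulk RNA a change in the share of cells and a change in RNA per cell cannot be told apart. Neither can be told apart from another difference of the PBS culture or library.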

How the data were processed

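RNA-seq was measured in 4 MHCC-97H libraries, 1 per condition. Per the labels, the authors used CASAVA 1.8, fastp, HISAT2 2.0.5 and featureCounts 1.5.0-p3 with hg38. They deposited raw read counts per gene and FPKM values (fragments per kilobase and 1000000 fragments) for the same 58735 genes. Strandedness is not given in the sources used here. Symbols were taken from the FPKM table, since 15 in the count table had become dates, and of a symbol with several identifiers the one with most reads was kept.

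From the counts, libraries were scaled by TMM (edgeR 4.0.16, R 4.3.3) on 19895 genes, those that reached 10 reads in 1 or more libraries. Genes under 10 reads in PBS entered only through Mig libraries, which can raise the counts of higher genes in a list. Log2 differences are differences of log2 CPM with a prior count of 2, and a gene was called at a difference of at least 1. Intervals at 95% are exact Poisson intervals for a level and exact Clopper-Pearson intervals for a ratio (scipy 1.17.1). For folds against a count of 0 and for the level figure a floor of 3 reads was used, which lies below the exact upper limit. Folds against that floor leave out counting error in the other library. No p-value was computed, as 1 library per condition leaves no residual degree of freedom. The calculation was tested on simulated data.

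The members and the 16 companion lists were chosen with earlier results of these data known. A few genes of the albumin and cholangiocyte lists are not reported here, and the counts of these lists leave them out. Named were all members and, per list, up to 3 genes with the largest mean rise and up to 3 with the largest mean fall against PBS of at least 1 on the log2 scale, with genes past that limit between Migs and at least 50 reads. Other genes of the lists are given as examples of a role and were chosen after their values were seen. Alternatives were total reads, DESeq2 1.42.0 size factors, prior counts of 0.25 and 5, other filters, log2(FPKM + 1) and a call that also needs the interval.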

Additional observations from a re-analysis of the deposited data

How the results depend on the processing

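No replicate could be left out, since each condition had 1 library. No paired analysis was possible because the groups share a single replicate number. The 10 counts of members called were recomputed under 8 alternatives, and 73 of 80 values stayed within 1.5 times. With at least 10 reads required in each library, 2 members were higher than PBS after normo-Migs and 2 after CD147KO-Migs (HMGA2 and PEG10), because SALL4 and LIN28B then left the test, and after hypo-Migs 2 remained of 3. On log2(FPKM + 1), 2 were higher after each Mig (SALL4 and PEG10), and 0 were lower after any of the 3 Migs, IGF2BP3 standing at −0.96, −0.89 and −0.93 and HMGA2 at 0.62, 0.69 and 0.61 on that scale, which understates the change of low genes. LIN28B gained its call after hypo-Migs with a prior count of 0.25, for 4 members higher, and lost it after CD147KO-Migs where the interval had to leave out 0, for 3. Of 235 recomputed log2 differences 218 stayed inside the counting interval, 17 left it and 0 reversed a call, and 16 of the 17 were on log2(FPKM + 1). Depth limits LIN28B, DLK1, AFP and GPC3, for which 3 reads correspond to 0.0747 to 0.0880 CPM.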

Other observations

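Other genes used as HCC or oncofetal markers differed from PBS in both directions. Of 28 listed genes 19 had enough reads, with 9 higher and 5 lower than PBS after normo-Migs, 10 and 5 after hypo-Migs and 8 and 5 after CD147KO-Migs, beside 18.1% to 18.9% higher and 11.6% to 12.0% lower over all tested genes, and medians of 0.97, 1.03 and 0.70 on the log2 scale beside 0.03, 0.04 and 0.03 over all tested genes. SPP1 (osteopontin) had 0 reads in PBS and 428, 408 and 463 after normo-Migs, hypo-Migs and CD147KO-Migs, at least 145-fold, 117-fold and 152-fold higher. AKR1B10, an aldo-keto reductase of HCC, had 16 reads in PBS and 3033, 3536 and 3455 after Migs. SOX9, a progenitor cell factor, had 7 and 327, 441 and 391. Both SPP1 and SOX9 passed the filter only through the Mig libraries. The lower genes included KRT19, given above, MAGEA1, a cancer-testis antigen with 2866 reads in PBS and 518, 502 and 509 after Migs, and PROM1 (CD133) with 12 reads in PBS and 0, 2 and 0 after Migs. CEACAM6, an adhesion molecule, had 12 reads in PBS, 50 after normo-Migs, 55 after hypo-Migs and 21 after CD147KO-Migs. It was the 1 marker of the 19 past 2-fold between hypo-Migs and CD147KO-Migs (log2 difference 1.12, 0.44 to 1.99). In that comparison 4.78% of all tested genes were higher and 4.34% lower.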
